A study of Tribolium castaneum with 2 samples.

Results

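Transcripts that were assembled from reads of red flour beetle (*T*. *castaneum*) larvae, and that shared no exonic base with a reference transcript on the same strand, are described here. Transcripts of no assigned strand were checked on both strands, and the rule uses positions and not expression values. The library titled TC1 held 688 such transcripts among 7674 assembled ones (8.97%), and the library titled TC2 held 693 among 7423 (9.34%). All transcripts listed numbered 24745 and 24494, of which 17071 in each library were reference transcripts. Overlapping members of both libraries were joined into 830 loci.

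Wild type late-instar larvae, 20 days from oviposition, were kept for 12 h in bottles of 20 larvae, either in a supplied gas of 2% O2, 18% CO2 and 80% N2 or in normoxia. The sample labels carry the same text for both libraries, and a legend in the supplement of the study names TC1 as the control group and TC2 as the hypoxia-treated group. Poly(A) RNA of whole larvae gave 1 library per group, so the differences between TC1 and TC2 have no replicate check and no transcript was tested. Low oxygen and high CO2 cannot be told apart, and neither can fewer cells of a type and less RNA per cell.

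A reference annotation lists the genes that were known when it was made, and reads that fall outside it can come from several sources. Among them are genes that were never annotated, untranslated ends longer than the annotated ones, long noncoding RNA, RNA from the strand opposite a gene, and introns that were not removed. A guided assembly joins overlapping reads into transcripts around the reference, and a spliced read fixes the position of an intron to the base while the outer ends of a transcript remain loosely placed. Because the outer ends are loose, introns rather than ends were used to recognise the same spliced transcript in both libraries.

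The values are FPKM, the fragments of a transcript scaled to its length and to all mapped fragments of the library, given by Cufflinks with a confidence interval. The interval, printed in parentheses after a value, holds the error of counting fragments and assigning them to transcripts inside that library, and the variation among larvae is not in it. Read counts are not given in these files, which hold an estimated coverage per transcript, with a median of 16.9 in TC1 and 16.7 in TC2 for members of 200 bases or more. A gene at exactly 0 may have failed to be estimated and is said to be listed at 0. The library kit was not stated to mark strand, so reads of a gene and of its antisense partner cannot be told apart.

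Most members were short and had a single exon. In TC1, 421 of 688 members (61.2%) had 1 exon, and in TC2 436 of 693 (62.9%) did. Among assembled transcripts that shared exonic bases with a gene the share was 5.64% in TC1 and 5.54% in TC2, and among reference transcripts it was 20.3%. A strand was missing for 411 members in TC1 and 424 in TC2, nearly all of those with 1 exon. Members with 2 exons numbered 134 and 129, those with 3 exons 64 and 72, those with 4 exons 32 and 26, and those with 5 or more 37 and 30.

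The median length of members was 534.5 bases in TC1 and 547 in TC2, beside 1644 and 1646 bases for assembled transcripts of genes. Lengths ran from 108 to 4224 bases in TC1 and from 83 to 7304 in TC2. The longest member of TC1 was spliced, with 10 exons on the sequence named Unknown (10486484 to 10497958, + strand) at 43.5 FPKM (40.3 to 46.8), and it crossed TC001872 on the opposite strand. The longest of TC2 was a single exon on ChLG7 (1036583 to 1043886) at 38.2 FPKM (36.6 to 39.8). TC1 had 2 separate single-exon members within the same stretch, of 2121 bases at 4.08 FPKM (3.03 to 5.13) and of 3702 bases at 54.3 FPKM (51.5 to 57.1), so 1 transcript of TC2 stood against 2 of TC1.

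The median intron of spliced members was 112 bases in TC1 and 96.5 in TC2, beside 97 and 98 bases in assembled transcripts of genes. The longest intron, 54048 bases on Unknown, was found at the same position in both libraries, in a transcript of 2 exons at 41.7 FPKM (25.02 to 58.36) in TC1 and 53.3 FPKM (33.8 to 72.7) in TC2. Because Unknown is not a placed chromosome, an intron of this length there is given only as the files state it.

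The FPKM of members was about that of other assembled transcripts, with wider intervals. Their median was 10.1 FPKM in TC1 and 9.14 in TC2, beside 11.0 and 10.4 for assembled transcripts of genes and 8.60 and 8.19 for reference transcripts above 0. The lowest member had 1.30 FPKM in TC1 and 1.26 in TC2, so no member fell under 1 FPKM, while 192 and 221 assembled transcripts of genes did. Members were mostly shorter, and a given FPKM stands for fewer fragments in a shorter transcript. The part of length in this floor and in the medians was not tested. Spliced members had a median of 12.3 and 11.6 FPKM and single-exon members one of 9.06 and 7.91. The half-width of the interval had a median of 41.9% of the FPKM in TC1 and 41.1% in TC2 for members, and of 21.3% and 21.0% for assembled transcripts of genes.

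Members together held 3.75% of all FPKM in TC1 and 4.09% in TC2, and a few of them carried most of it. The 2 highest members made up 59.8% and 52.5% of the member FPKM, and without them the shares were 1.51% and 1.94%. At 100 FPKM or more stood 34 members in TC1 and 32 in TC2. FPKM weighs short transcripts up, and by FPKM times length the members held 2.07% and 2.23%.

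The highest member was a single exon on Unknown (27813365 to 27813842 over both libraries). It reached 26696 FPKM (26452 to 26940) in TC1 over 399 bases and 21479 FPKM (21300 to 21657) in TC2 over 478 bases. Its FPKM was lower in TC2, at a log2 ratio of -0.31, and its assembled stretch was longer there. Because FPKM contains the length, no lower level is read from this. The nearest reference transcript, TC005208, is listed 68160 bases away. No annotation was at hand for this member, and its identity is not known from these files.

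A group of single-exon members lay inside an intron of TC016006 on Unknown. The largest of them, at 22144580 to 22145243, had 3394 FPKM (3334 to 3454) in TC1 and 3860 FPKM (3800 to 3920) in TC2. A neighbour at 22142876 to 22143116 had 394.7 FPKM (343 to 447) in TC1 and 488 FPKM (434 to 542) in TC2. These members were both slightly higher in TC2, by less than 1.5-fold. Between them, a member starting at 22144216 had 196 FPKM (163 to 229) in TC1 and 961 FPKM (813 to 1109) in TC2, a log2 ratio of 2.29. It was assembled over 255 bases in TC1 and over 166 in TC2, and the part of length in this ratio was not tested. The neighbours around TC016006 were chosen after their values were seen.

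The shortest member of all was also among the highest. It covered 83 bases of Unknown (13030897 to 13030979), 532 bases from the 5′ end of TC011493, and had 5711 FPKM (2024 to 9399) in TC2, with no assembled transcript at that place in TC1. Its interval was wide, with an upper bound several times the lower. Members under 200 bases numbered 11 in TC1 and 17 in TC2, with a median of 146 and 62.9 FPKM, against 9.90 and 8.79 FPKM for longer ones. The coverage per FPKM, which would be the same for every transcript if FPKM followed coverage alone, had a median of 1.31 and 1.60 in these short members and of 1.72 and 1.90 in longer ones, so their FPKM stood higher relative to their coverage.

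The remaining single-exon loci among the 5 highest were on ChLG7 and Unknown. The one on ChLG7 (5855255 to 5856023, + strand) had 884 FPKM (833 to 936) in TC1 and 689 FPKM (653 to 726) in TC2. It overlapped the span of TC015950 and shared 375 bases with TC015902 on the opposite strand, a gene at 8062 FPKM in TC1 and 11639 in TC2. The FPKM of the member was lower in TC2 while that of the gene opposite was higher, and reads of the pair cannot be told apart by strand. The member was assembled over 514 bases in TC1 and over 769 in TC2. Because FPKM contains the length, no direction is read for the member. The other, on Unknown (15728649 to 15728944), 497 bases from the 5′ end of TC011502, had 645 FPKM (594 to 696) in TC1 and 804 FPKM (750 to 859) in TC2.

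Members were found on all chromosomes, and unevenly. Unknown held 129 of the 688 members in TC1 (18.8%) and 140 of 693 in TC2 (20.2%), beside 12.4% of reference transcripts and 6.56% and 6.51% of assembled transcripts of genes. It also held 71.9% and 73.1% of the member FPKM, largely in the highest members above. ChLG9 held 34 members in each library (4.94% and 4.91%), beside 9.21% of reference transcripts. ChLG5 was low as well, with 7.70% and 6.49% of members beside 10.9% of reference transcripts, and ChLG7 held 14.2% and 12.8% of members beside 11.4% of reference transcripts and 13.0% and 13.2% of assembled transcripts of genes. On ChLG2 the libraries differed, with 59 members in TC1 and 81 in TC2, and on ChLG3 they differed the other way, with 101 and 82.

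**Figure D1:**
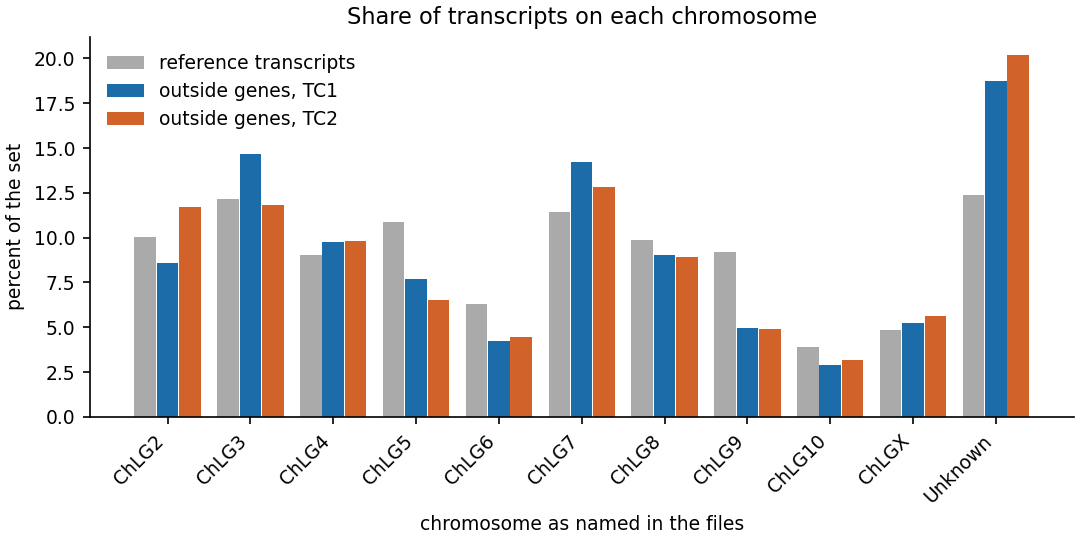
Percent of reference transcripts (grey), of members in TC1 (blue) and of members in TC2 (orange) on each chromosome as named in the files; each bar starts at 0. Unknown holds 18.8% and 20.2% of members beside 12.4% of reference transcripts, and ChLG9 holds 4.94% and 4.91% beside 9.21%.

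Most members lay between genes. In TC1 523 members (76.0%) and in TC2 516 (74.5%) did not overlap the span of any reference transcript. Within the span of a reference transcript, without sharing an exon, lay 104 and 119, and these are said to lie inside an intron. Of these, 33 and 36 were spliced, and whether such a member skipped over an exon of its host was not checked. Opposite an exon of a gene lay 35 and 30. Another 26 and 28 enclosed or reached into the span of a reference transcript without sharing its exons on the strand. The median FPKM was 9.24 and 8.19 between genes, 15.1 and 12.8 inside introns, 16.4 and 11.8 for antisense members, and 12.0 and 14.5 for those that enclosed or reached into a gene. Members between genes thus had the lowest median of these classes in both libraries.

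Members between genes clustered near gene ends. On the placed chromosomes, 417 such members in TC1 and 398 in TC2 had a median distance of 644 and 667 bases from the nearest reference transcript, and the distances ran from 1 to 33906 and 33917 bases. Within 1000 bases lay 262 in TC1 (62.8%) and 241 in TC2 (60.6%), whereas 17.1% of the bases between genes lay that near a gene end. The last share is one of single bases, and a member, which has a length, can reach near a gene more easily than a base does.

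The side of the gene differed between single-exon and spliced members. Of the single-exon members within 1000 bases of a gene, 129 of 173 in TC1 (74.6%) and 112 of 169 in TC2 (66.3%) faced its 3′ end. Of the spliced ones 45 of 89 (50.6%) and 30 of 72 (41.7%) did, and of the bases between genes at that distance 47.9% were nearest to a 3′ end. Farther than 1000 bases, 56 of 97 (57.7%) and 53 of 93 (57.0%) single-exon members faced a 3′ end, beside 23 of 58 (39.7%) and 28 of 64 (43.8%) spliced ones. The excess at 3′ ends was therefore largest for single-exon members close to a gene.

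**Figure D2:**
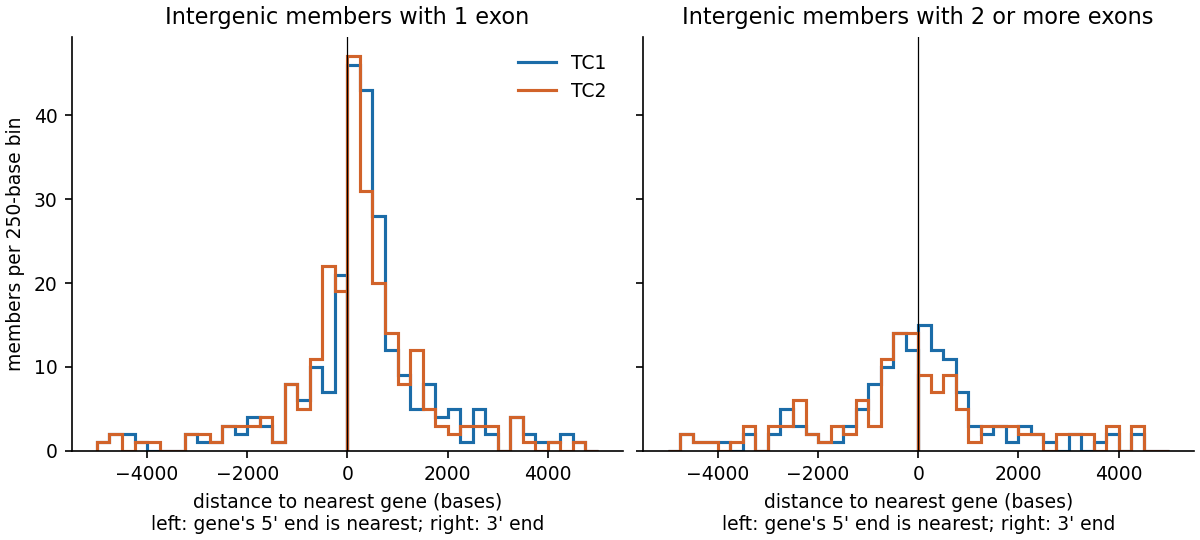
Number of members between genes per 250-base bin of distance to the nearest reference gene, for single-exon members (left panel) and spliced members (right panel), in TC1 (blue) and TC2 (orange); members nearest to a 5′ end are drawn at negative and those nearest to a 3′ end at positive distances. Single-exon members pile up just beyond 3′ ends, with 129 and 112 within 1000 bases there, and spliced members, with 45 and 30, lie about evenly on both sides.

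The nearest genes of these members had higher FPKM than genes in general, near and far. The nearest gene of members within 1000 bases had a median of 15.6 FPKM in TC1 and 10.8 in TC2, and that of members farther away one of 13.2 and 5.98, beside 2.55 and 1.94 over all 17070 genes. Within 1000 bases of a 3′ end the median was 19.1 and 16.4 FPKM, and of a 5′ end 10.9 and 4.04. Over all members, the nearest gene was listed at 0 for 22.1% in TC1 and 24.4% in TC2, beside 33.9% and 35.3% of all genes. A gene with several members near it counts several times in these medians.

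Members of both libraries lay around TC009126 on ChLG7, annotated in the study as heat shock protein 68a or 68b, of the chaperones that bind unfolded proteins, and they were named after their values were seen. In TC2 a 3-exon member (6603975 to 6604949, - strand) at 5.43 FPKM (3.55 to 7.32) lay 824 bases beyond the 3′ end of the gene, on its strand. A 2-exon member of TC2 (6605005 to 6612128, - strand) at 11.5 FPKM (4.94 to 18.2) began next to it. In TC1 a single member of 7 exons (6602679 to 6612126, - strand) at 10.8 FPKM (9.05 to 12.6) covered the whole stretch, so the same place was assembled into different pieces in each library. The 2-exon and the 7-exon member were antisense to another gene, TC009706, with which each shared 92 bases.

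Inside introns, most members had no strand. Of the 104 in TC1 and 119 in TC2, 70 and 81 had none, 21 and 20 ran in the direction of the host transcript, and 12 and 17 ran against it. They lay in 84 and 102 different host transcripts, so some hosts held several members.

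Antisense members overlapped their gene only in part. The shared stretch had a median of 148 bases in TC1 and 138 in TC2, which was 24.0% and 22.6% of the length of the member. The reference transcript opposite was listed at 0 for 17 of 35 in TC1 and 16 of 30 in TC2. Of all 17071 reference transcripts, only 9385 in TC1 and 9249 in TC2 were above 0. The gene opposite, with its assembled transcripts added, was listed at 0 for 10 and 9, beside 33.9% and 35.3% of all genes. The member had the higher FPKM in 27 and 24 cases against the reference transcript, and in 21 and 19 against the gene. Since no member was under 1 FPKM, these counts include every case in which the transcript or gene opposite was listed at 0. TC015902, given above, was among the genes above their antisense member.

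Some members were outside genes in one library only. In TC1 54 members and in TC2 59 overlapped no member of the other library but did overlap its assembled transcript of a gene. Of these, 36 and 40 lay between genes, and of those 35 and 34 were within 1000 bases of the nearest one and 31 and 26 faced its 3′ end. The transcript of the other library belonged to the nearest gene for 46 and 38 of the 54 and 59. Cufflinks itself had given 9 members in TC1 and 15 in TC2 the gene label of a reference transcript.

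Over both libraries, spliced loci were found again more often than single-exon ones. Members of both libraries were present at 414 of the 830 loci (49.9%), with 198 loci in TC1 only and 218 in TC2 only. Of 270 loci with a spliced member, 184 (68.1%) were in both libraries, and of 560 single-exon loci 230 (41.1%) were. A spliced member in either library made a locus spliced, so loci in both libraries had more ways to be spliced, which widens this difference. By member, 14.6% of spliced ones in TC1 and 11.7% in TC2 met no assembled transcript of the other library. Of single-exon members 26.6% and 31.0% met none. Another locus lay within 1000 bases of 141 loci (17.0%), so neighbouring loci may be pieces of 1 transcript.

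Of the 267 spliced members in TC1 and 257 in TC2, 131 had a member with identical introns in the other library, 49.1% and 50.97%. A further 88 and 82 overlapped a member with other introns, 9 and 14 overlapped a transcript of a gene, and 39 and 30 met nothing. Intron by intron the overlap was larger, with 363 introns shared of 487 distinct ones in TC1 (74.5%) and 497 in TC2 (73.0%). Assembled transcripts of genes, which have more introns each, had identical introns in both libraries for 2527, or 38.3% and 39.8% of the spliced ones. Among the 131 pairs 75 had 2 exons and 7 had 5 or more.

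Single-exon members have no introns to compare and were matched by overlap. In TC1 264 of 421 overlapped a member of TC2, 45 overlapped a transcript of a gene and 112 met nothing, and in TC2 the numbers were 256, 45 and 135 of 436. A single-exon member of TC1 was paired with the one of TC2 of largest overlap where at least 50% of both was shared. With each TC2 member in at most 1 pair, 219 pairs resulted. In 33 of these both ends agreed to within 10 bases, and in 2 they were identical. The outer ends of spliced pairs were loosely placed as well, with 17 of 131 pairs within 10 bases at both ends, although their introns were identical. The assembled lengths of spliced pairs differed by a median of 75 bases and at most by 1578.

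**Figure D3:**
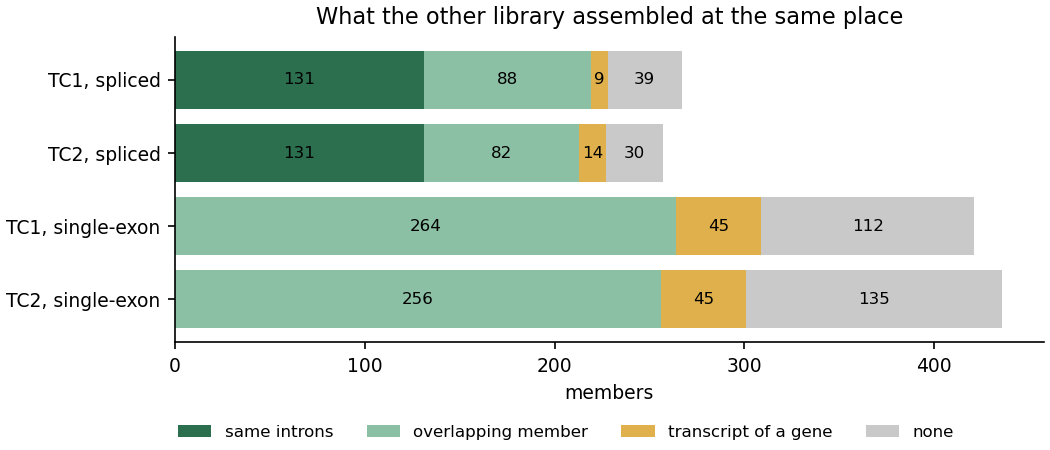
Number of members in TC1 and TC2, spliced and single-exon, by what the other library assembled at the same place: a member with the same introns (dark green), another overlapping member (light green), a transcript of a gene (yellow) or nothing (grey). Of spliced members 39 and 30 met nothing in the other library, and of single-exon members 112 and 135.

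Members at higher levels were found again more often. Under 5 FPKM 107 of 160 members in TC1 (66.9%) and 114 of 176 in TC2 (64.8%) overlapped any assembled transcript of the other library. From 10 to 20 FPKM 79.0% and 79.9% did, and at 50 FPKM or more 96.8% and 89.2%. At 10 FPKM or more, 53 members in TC1 and 55 in TC2 met nothing.

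At 100 FPKM or more, 1 member in TC1 and 4 in TC2 had no assembled transcript at the same place in the other library, and they were named after their values were seen. In TC1 it was a single exon on ChLG9 (17537328 to 17537551) at 253 FPKM (207 to 299), 55 bases beyond the 3′ end of TC012670. In TC2, a 3-exon transcript on ChLG7 (8878792 to 8880181, - strand) had 481 FPKM (453 to 509), 3435 bases from the 5′ end of TC009096. It was the only spliced one of the 5. The others in TC2 were the 83-base member above, a 180-base exon inside an intron of TC006052 on ChLG8 (2379819 to 2379998) at 189 FPKM (134 to 244), and a 473-base exon opposite TC012751 on ChLG9 (18929248 to 18929720) at 170 FPKM (153 to 188). The absence of an assembled transcript is no measure of expression, since reads of the other library that were assigned to a reference transcript or left unassembled are not seen.

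The comparison of TC2 with TC1 rests on the 131 pairs with identical introns, all of which averaged 1 FPKM or more. A pair was called higher or lower in TC2 where FPKM differed at least 1.5-fold, after adding 0.1 FPKM to both values, and the intervals did not overlap. The pseudocount understates the change of low transcripts. By this rule 12 pairs (9.16%) were higher and 17 (13.0%) lower in TC2. Over all 10724 paired transcripts above the filter, reference ones by name and assembled ones by introns, 14.8% were called higher and 17.3% lower. The assembled transcripts of genes with identical introns, which were paired in the same way, had 14.0% and 15.3%, and genes by summed FPKM 7.54% and 12.1%. The share of called pairs was below that of paired transcripts and slightly above that of summed genes in both directions. The intervals of members were wider than those of transcripts of genes, with a median half-width of 34.1% and 32.1% in these pairs and 17.4% and 17.2% in pairs of assembled transcripts of genes. Another 30 pairs of members differed by 1.5-fold or more with overlapping intervals.

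The median log2 ratio of the pairs was 0.04, with quartiles at -0.58 and 0.42 and a range from -1.82 to 1.89. Over all paired transcripts the median was -0.09, and over assembled transcripts of genes -0.05. In 70 of the 131 pairs TC2 was the higher. Centred on the median of reference transcripts, which moves every log2 ratio up by 0.11, 18 pairs were called higher and 14 lower, so which direction had more calls depends on the scaling. Rescaling to the same sum of FPKM gave 16 higher and 16 lower.

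By position, 8 of 96 pairs between genes were called higher and 9 lower, and 1 of 16 pairs inside introns was higher and 4 lower. Of 10 antisense pairs 2 were higher and 1 lower, and of 9 that enclosed or reached into a gene 1 was higher and 3 lower. Of the 219 single-exon pairs, 9 were called higher (4.11%) and 19 lower (8.68%), with a median log2 ratio of -0.073.

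**Figure D4:**
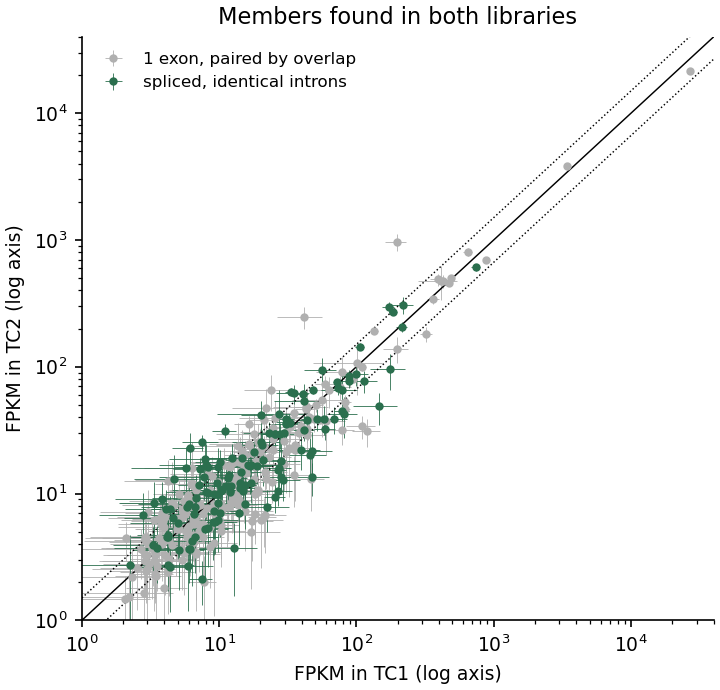
FPKM of members found in both libraries, TC1 on the x axis and TC2 on the y axis, both on log axes, with Cufflinks confidence intervals as thin lines; spliced pairs with identical introns are green and single-exon pairs paired by overlap are grey. The solid line marks equal values and the dotted lines 1.5-fold; of 131 spliced pairs 72 lie within 1.5-fold, and of 219 single-exon pairs 144 do.

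The highest spliced pair lay on ChLG6 (3352259 to 3352745 in TC1, - strand, 3 exons), 68 bases from the 3′ end of TC015532 and on the opposite strand. It had 743 FPKM (688 to 797) in TC1 and 611 FPKM (574 to 649) in TC2. The intervals were separate and the values differed by less than 1.5-fold. In TC2 the transcript was assembled over 527 bases instead of 357 and reached 56 bases into TC015532, which made it antisense there.

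Of the next 7 pairs by level, 4 had the higher FPKM in TC2. On ChLG4 (13582099 to 13583969, + strand), 238 bases from the 5′ end of TC007012 and opposite to it, a 3-exon pair had 218 FPKM (178 to 257) in TC1 and 308 FPKM (260 to 355) in TC2. On ChLG8 (6305557 to 6309029, - strand), 466 bases beyond the 3′ end of TC005908, a 3-exon pair had 184 FPKM (171 to 197) in TC1 and 268 FPKM (257 to 279) in TC2. These differed by less than 1.5-fold, and their nearest genes were at 6.05 and 4.72 FPKM (TC007012) and at 0.602 and 0 FPKM (TC005908), far below the members.

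A 2-exon pair on ChLG9 (824783 to 825332, - strand), 141 bases from the 5′ end of TC012251 and opposite to it, was called higher. It had 172 FPKM (154 to 189) in TC1 and 296 FPKM (267 to 325) in TC2, a log2 ratio of 0.79, while TC012251 was at 181 FPKM in TC1 and 151 in TC2. The FPKM of the member and of the gene therefore differed in opposite directions, the gene by less than 1.5-fold. The pair was assembled over 452 bases in TC1 and over 325 in TC2. By FPKM times length its log2 ratio was 0.31, less than 1.5-fold. A 4-exon pair on ChLG2 (19198816 to 19199600, - strand), 71 bases from the 5′ end of TC000218, was level at 214 FPKM (194 to 235) in TC1 and 207 FPKM (188 to 227) in TC2, beside a gene at 1.02 and 0.114 FPKM.

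Of the other pairs in this group, 1 was called. On ChLG4 (8717965 to 8718207, + strand), 750 bases beyond the 3′ end of TC008277, a 2-exon pair of 189 and 208 bases had 176 FPKM (126 to 227) in TC1 and 95.8 FPKM (65.3 to 126) in TC2, with intervals that just overlapped. Another on ChLG4 (926105 to 927713, + strand), inside an intron of TC007697 and against its direction, had 105 FPKM (97.7 to 113) in TC1 and 144 FPKM (135 to 153) in TC2, less than 1.5-fold apart. The pair called lower was on Unknown (36663229 to 36663459, + strand, 2 exons), 11824 bases from TC011581, at 146 FPKM (94.8 to 197) in TC1 and 48.6 FPKM (34.8 to 62.5) in TC2, a log2 ratio of -1.58. It was assembled over 179 bases in TC1 and over 286 in TC2.

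Among the pairs called higher and averaging 5 FPKM or more, the 5 with the largest log2 ratios lay on ChLG9, ChLG3 and ChLG7. A 4-exon pair on ChLG9 (5825296 to 5827332 in TC1, + strand), 627 bases beyond the 3′ end of TC005222, had 6.09 FPKM (4.51 to 7.68) in TC1 and 22.8 FPKM (15.4 to 30.2) in TC2, a log2 ratio of 1.89. It was assembled over 1820 bases in TC1 and 472 in TC2, and by FPKM times length the log2 ratio was -0.04. The nearest gene TC005222 was called lower, at 15.4 and 3.13 FPKM.

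A 2-exon pair on ChLG3 (14270326 to 14275964, - strand), 4348 bases beyond the 3′ end of TC030161, had 7.54 FPKM (5.32 to 9.76) in TC1 and 25.4 FPKM (21.6 to 29.1) in TC2. Its lengths were 990 and 992 bases, and its log2 ratio was 1.74 by FPKM and 1.75 by FPKM times length. Among these 5 it was the pair whose log2 ratio moved least between the measures, and TC030161 was listed at 0 in both libraries.

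The other pairs of this group were all on ChLG7. One of 4 exons (874507 to 876650, - strand), 856 bases from the 5′ end of TC009370, had 11.0 FPKM (8.87 to 13.2) in TC1 and 31.4 FPKM (27.7 to 35.1) in TC2, a log2 ratio of 1.502, or 0.95 by FPKM times length. One of 2 exons (5211607 to 5212149, + strand), 683 bases from the 5′ end of TC009667, had 7.82 FPKM (4.32 to 11.3) in TC1 and 18.6 FPKM (12.0 to 25.2) in TC2, a log2 ratio of 1.24, or 0.82 by FPKM times length. Their nearest genes were nearly level, at 6.57 and 6.11 FPKM (TC009370) and at 6.15 and 6.20 FPKM (TC009667). A 4-exon pair that reached into the span of TC009862 (12895995 to 12923468, - strand) had 7.23 FPKM (4.65 to 9.82) in TC1 and 15.7 FPKM (12.2 to 19.2) in TC2, a log2 ratio of 1.11, or 1.05 by FPKM times length.

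Of the 5 pairs with the lowest log2 ratios among those called lower at that mean, 4 were shorter in TC1 than in TC2. A 2-exon pair inside an intron of TC007784 on ChLG4 (481720 to 482047, + strand) had 47.7 FPKM (32.4 to 62.9) over 277 bases in TC1 and 13.4 FPKM (9.51 to 17.3) over 574 bases in TC2, a log2 ratio of -1.82, or -0.78 by FPKM times length. A 2-exon pair inside an intron of TC008839 on ChLG7 (15196900 to 15197324, - strand) had 12.9 FPKM (7.13 to 18.7) over 373 bases in TC1 and 3.72 FPKM (1.56 to 5.88) over 692 bases in TC2, a log2 ratio of -1.77, or -0.90 by FPKM times length. Both ran in the direction of their host, and TC008839 itself was listed at 0 in TC1 and at 4.54 FPKM in TC2.

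The pair on Unknown near TC011581, given above, came next, with a log2 ratio of -1.58 by FPKM and -0.91 by FPKM times length. A 3-exon pair inside an intron of TC013545 on ChLG5 (10096355 to 10096770, - strand) had 22.4 FPKM (12.7 to 32.0) over 306 bases in TC1 and 7.84 FPKM (4.94 to 10.7) over 696 bases in TC2, a log2 ratio of -1.501, or -0.33 by FPKM times length. The exception was a 2-exon pair on ChLG5 (2519055 to 2520094, + strand), 4537 bases from the 5′ end of TC010956, of 985 bases in TC1 and 921 in TC2. It had 25.6 FPKM (21.2 to 30.0) in TC1 and 9.45 FPKM (6.97 to 11.9) in TC2, a log2 ratio of -1.43, or -1.54 by FPKM times length.

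The log2 ratio of a pair went along with the ratio of its assembled lengths, a relation looked at after the data were seen. Across the 131 pairs Spearman's rho of the FPKM ratio with the length ratio was -0.55 and Pearson's r -0.53, a description over transcripts of the same 2 libraries, in which FPKM already contains the length. Of 41 pairs more than 10% longer in TC2, 1 was called higher and 10 lower, with a median log2 ratio of -0.59. Of 30 pairs more than 10% shorter in TC2, 6 were higher and 1 lower, with a median of 0.44. Of the 60 pairs with lengths within 10%, 5 were higher and 6 lower, with a median of 0.08. Among paired assembled transcripts of genes longer in TC2 by that limit, 7.65% were called higher and 34.4% lower. Among those shorter in TC2 the shares were 33.0% and 8.77%, and at lengths within the limit 11.6% and 12.6%. In each length class a smaller share of member pairs was called, in either direction. Member pairs also had wider intervals, and the part of width in these shares was not tested.

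By FPKM times length rho with the length ratio was -0.08, and 11 pairs were called higher and 7 lower. Of the 12 called higher by FPKM 7 were called so again, and of the 17 called lower 7 were. The same relation was present in assembled transcripts of genes, with a rho of -0.27 over 2516 pairs, and in single-exon members, with -0.55 over 219 pairs.

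**Figure D5:**
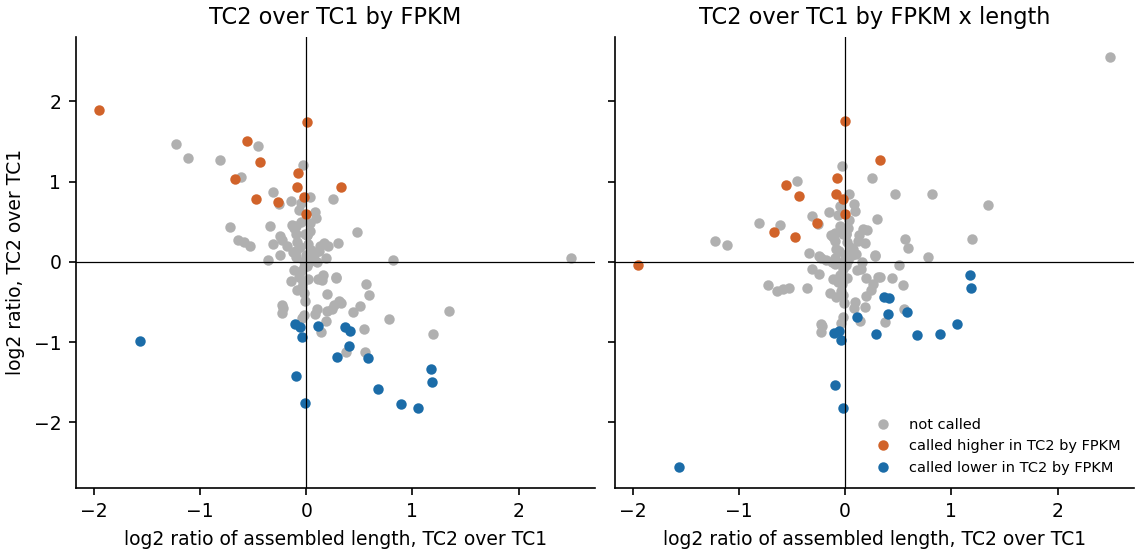
Log2 ratio of TC2 over TC1 of the 131 spliced pairs (y axis) against the log2 ratio of their assembled lengths (x axis), by FPKM (left panel) and by FPKM times length (right panel); orange and blue points were called higher and lower in TC2 by FPKM, and grey points were not called. By FPKM the points fall from upper left to lower right, with a rho of -0.55, and by FPKM times length they do not, with a rho of -0.08.

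The pairs with the most exons had 5 to 10 of them. A 10-exon pair on ChLG5 (4630081 to 4682533, - strand), whose span of introns holds TC013981 on the opposite strand, had 71.6 FPKM (67.0 to 76.2) over 3199 bases in TC1 and 75.3 FPKM (70.7 to 79.9) over 3215 bases in TC2, and TC013981 was listed at 0 in both. An 8-exon pair on ChLG4 (852865 to 881644, - strand), 4274 bases beyond the 3′ end of TC030640, had 48.5 FPKM (45.3 to 51.8) in TC1 and 65.4 FPKM (60.9 to 70.0) in TC2. It was assembled over 4007 bases in TC1 and 2429 in TC2. Its log2 ratio was 0.43 by FPKM and -0.29 by FPKM times length. Neither of the 2 pairs differed by 1.5-fold in FPKM.

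An 8-exon pair on ChLGX (682484 to 684503, - strand), only 477 and 472 bases long and 79 bases from the 3′ end of TC011547 on the opposite strand, had 8.03 FPKM (4.08 to 12.0) in TC1 and 10.3 FPKM (6.25 to 14.3) in TC2. A 7-exon pair on ChLG8 (6796937 to 6823178, - strand) was called higher, at 33.3 FPKM (30.0 to 36.5) in TC1 and 63.7 FPKM (59.0 to 68.3) in TC2, a log2 ratio of 0.93. It shared 516 bases with TC006263 on the opposite strand, a gene listed at 0 in TC1 and at 136.8 FPKM in TC2. The reference transcript of TC006263 was listed at 0 in both libraries and the 136.8 FPKM came from assembled transcripts, so no direction is read for the gene, and reads of the pair cannot be told apart by strand. A 5-exon pair on ChLG7 (544996 to 550518, + strand), 216 bases beyond the 3′ end of TC030045, was level at 29.6 FPKM (27.2 to 31.9) in TC1 and 29.8 FPKM (27.8 to 31.7) in TC2, beside a gene at 789 and 773 FPKM.

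The log2 ratios of members were also set beside those of their nearest genes. For 35 spliced pairs within 1000 bases of a gene above the filter, Pearson's r of the log2 ratio of the member with that of the gene was -0.08 and Spearman's rho -0.25, and 12 of the 35 had the same sign. For 52 single-exon pairs at that distance r was -0.01 and rho 0.17, with the same sign in 27. Farther away, r was 0.19 and rho 0.17 for 17 spliced pairs, with the same sign in 12, and r was 0.23 and rho 0.13 for 43 single-exon pairs, with the same sign in 21. These are correlations over transcripts of the same 2 libraries, given as a description. The wide intervals of members and their differing lengths enter each of the ratios.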

How the data were processed

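RNA of 1 TC1 and 1 TC2 library was measured. The authors trimmed reads at Q20, mapped them to the BeetleBase genome and deposited the FPKM, interval and coverage of each transcript of a reference-guided Cufflinks assembly, made separately per library. The sources used here do not name the aligner, the Cufflinks version, the genome build or the annotation release. Coordinates were taken from the files. Since the study's DEseq test needs counts, no test was run. Members and lists were chosen with earlier results of these data known.

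A shared exonic base on the same strand excluded a transcript. Spliced members were paired where all introns had the same start, end and strand. Single-exon members were paired 1 to 1 by the largest overlap with at least 50% of both shared. A gene's FPKM was the sum over its reference transcripts and the assembled transcripts sharing most exonic bases with it. Distances are from spans to reference spans, on placed chromosomes for summaries. Log2 ratios used a pseudocount of 0.1 FPKM and a mean of at least 1 FPKM. Named were, among pairs, the 8 highest by mean FPKM, the 5 largest rises and 5 largest falls among calls averaging 5 FPKM or more, the 5 with most exons, and the 5 highest single-exon loci. Alternatives were other strand, distance, pairing, filter, pseudocount, fold and scaling settings. Added after the data were seen were FPKM times length, lengths within 10%, Unknown or the 2 highest members left out, and single-exon pairs. The code was tested on simulated data. The reference gene table at hand pairs none of the TC identifiers, and no genome sequence of the files' build was used, so no sequence is shown. Calculations used Python 3.11.15, numpy 2.4.6, pandas 2.3.3 and matplotlib 3.10.9.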

Additional observations from a re-analysis of the deposited data

How the results depend on the processing

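No paired analysis was possible because each group had 1 library and no test was run. Kept at least 1000 bases from every reference transcript, 235 members remained in TC1 and 235 in TC2. The share of FPKM in TC1 was 2.07% without the 10 highest transcripts of the library. It was 1.51% in TC1 and 1.94% in TC2 without the 2 highest members, and 2.07% and 2.23% by FPKM times length. With 1 identical intron in place of all, 202 members of TC1 were paired, and with any exonic overlap 483. At a 2-fold threshold 6 pairs were higher and 10 lower in TC2, over 414 loci 26 were higher and 58 lower, and at lengths within 10% 5 and 6 of 60 pairs. By FPKM times length 7 were lower. The median log2 ratio was 0.15 after centring on the median of reference transcripts and -0.073 over single-exon pairs. Of the alternatives, 36 stayed within 1.5-fold of the reported count or share, or within 0.1 of the median log2 ratio, and 18 did not. Among the 36, the settings of at least 1 FPKM and of no filter could change nothing, since no member or pair was below 1 FPKM. Counts were compared without regard to how many pairs they came from, which differed, for example, for loci, single-exon pairs and lengths within 10%. Cufflinks intervals omit the spread between larvae, and the files give no read counts behind a value.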
